A study of Mus musculus with 6 samples.

Results

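Trimethylated lysine 27 of histone H3 (H3K27me3), a repressive chromatin mark, was profiled away from transcription start sites (TSSs), inside gene bodies, in mouse ovarian granulosa cells (GCs). The gene body regions were chosen by their presence in the peak lists and by position: peaks were merged within and then across 6 libraries, and a region was kept when it was present in at least 3 libraries, including 1 from each group, lay whole inside an annotated gene, was more than 2 kb from every TSS and was under 50% soft-masked as repeats. This left 381 regions, which is 12.6% of the 3026 regions present in at least 3 libraries and both groups, and 3.07% of all 12430 merged regions. GCs were taken from 3-week-old female ICR mice primed with pregnant mare serum gonadotropin, 6 h after a single intraperitoneal injection of phosphate-buffered saline (PBS, the vehicle) or of cyclophosphamide (CTX, an alkylating chemotherapeutic agent), with GCs of 3 mice pooled in a sample and 3 samples in each group. The assay was CUT&Tag, in which an antibody guides a transposase to the marked chromatin.

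H3K27me3 is written by Polycomb repressive complex 2, whose catalytic subunit is EZH1 or EZH2, and is removed by KDM6 demethylases. In differentiated cells it lies over developmental genes of other lineages, and it is usually densest over CpG-rich promoters. It can spread into a gene body as a broad domain, over both introns and exons, and a peak caller made for narrow peaks may break such a domain into several intervals.

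The depth recovered from the lists was 1375 to 1957 reads per Mb in the PBS libraries and 1118 to 1630 reads per Mb in the CTX libraries, and the lists held 2916 to 6378 merged peaks. No region present in at least 3 libraries and both groups touched any of 16 genes of granulosa cell identity or function, such as Foxl2, Fshr and Cyp19a1, from 2 kb before the gene to 2 kb after it. Of 12 marker genes of Sertoli, immune, endothelial or germ cells, only 2 had such a region, namely Sox9 and Dmrt1, the transcription factors of the testis. Most genes lack such a region: 1459 protein-coding genes had one at a promoter, where 18691 were longer than 4 kb. The absence over the 16 granulosa cell genes is therefore a description and is not read as a result about them. A repressive mark over a gene does not tell whether cells of another type were present, and this was not tested.

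Sequence around the summit of 5 strong gene body regions is shown first, because the strongest regions fell into sequences of unlike kinds. Each run is 150 bases of the plus strand of GRCm38 (mm10), centred on the summit, and capitals mark CG dinucleotides, the target of DNA methylation and the feature of Polycomb-bound CpG islands. The first lies in the coding exon 2 of Chst5, a carbohydrate sulfotransferase gene, at chr8:111889936-111890085, and is single-copy sequence with 11 CG. The next 2 lie in introns, in intron 1 of Filip1l at chr16:57391510-57391659 with 23 CG, and in intron 3 of Jarid2, a cofactor of Polycomb repressive complex 2, at chr13:44869519-44869668 with 10 CG. The last 2 hold no CG and lie in intron 1 of H60b, a ligand of the natural killer cell receptor NKG2D, at chr10:22209031-22209180, and in intron 2 of Sos2, a Ras exchange factor, at chr12:69654079-69654228. Of these 5 regions only that of Chst5 is single-copy by the measure given below. Those of Filip1l and Jarid2 share sequence with each other, so their CG runs are not read here as CpG islands of these genes. In the Sos2 run alone, capitals mark a 13-base word of its repeat, CCTCCCTTACACA, which stands there 3 times, as other words of the repeat do.
Chst5: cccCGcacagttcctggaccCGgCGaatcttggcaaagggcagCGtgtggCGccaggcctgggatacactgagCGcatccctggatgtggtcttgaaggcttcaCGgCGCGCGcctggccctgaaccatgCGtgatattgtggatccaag
Filip1l: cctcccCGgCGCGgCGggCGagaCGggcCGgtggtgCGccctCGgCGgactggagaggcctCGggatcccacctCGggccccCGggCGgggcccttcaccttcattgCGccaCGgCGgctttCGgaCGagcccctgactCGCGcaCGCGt
Jarid2: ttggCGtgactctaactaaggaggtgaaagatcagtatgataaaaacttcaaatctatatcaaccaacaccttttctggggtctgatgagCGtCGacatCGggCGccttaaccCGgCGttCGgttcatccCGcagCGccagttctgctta
H60b: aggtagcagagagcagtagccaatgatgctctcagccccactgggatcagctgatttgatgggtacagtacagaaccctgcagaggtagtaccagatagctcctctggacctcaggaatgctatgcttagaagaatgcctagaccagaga
Sos2: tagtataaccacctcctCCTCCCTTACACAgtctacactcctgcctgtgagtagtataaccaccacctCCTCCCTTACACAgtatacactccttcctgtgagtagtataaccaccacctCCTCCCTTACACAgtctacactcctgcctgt

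The question asked first was where in their genes the regions lay. Of the 381 regions, 130 (34.1%) overlapped a coding exon, 36 (9.45%) overlapped only other exons, that is untranslated or non-coding ones, and 215 (56.4%) were intronic throughout. The summit itself, the position of highest signal, lay in an intron in 274 regions (71.9%) and in a coding exon in 70 regions (18.4%). Counted by base, 29.5% of the 296142 bp were exonic and 19.9% were coding. In the unmasked gene body sequence more than 2 kb from every TSS of the whole genome, exons made up 7.96% and coding sequence 2.81%. The regions were also richer in G and C than that sequence, with a median of 54.9% against 43.2% in all, and exons are GC-rich, so the share of exons and the base composition cannot be told apart here. By the transcript of the host with the longest coding sequence, 122 of 281 intronic summits (43.4%) were in the first intron and 68 of 100 exonic summits (68.0%) were in the last exon. These 2 shares are descriptions. The rule bars sequence near a TSS, and the part of first introns and last exons in the eligible sequence was not computed.

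The median distance to the nearest TSS was 5199 bp, with quartiles of 3135 and 12655 bp and a maximum of 246539 bp. Closest to the limit, a region in Ebf2 lay 2010 bp from a TSS, just inside, and a region in Smad6 lay 1997 bp away, just outside. A second annotation, RefSeq, placed a TSS within 2 kb of 56 of the 381 regions (14.7%), so those regions are away from promoters only by the GENCODE annotation. Along the host gene, 81 summits fell in the first 20% of its length and 92 in the last 20%, against 56 in the middle 20%.

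**Figure D1:**
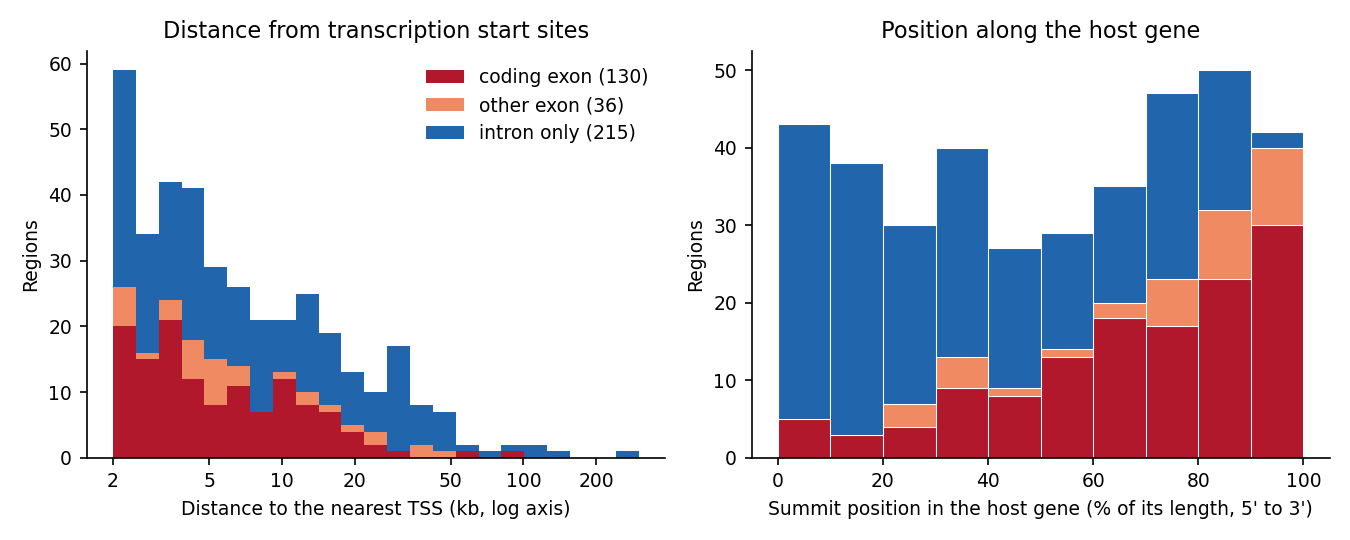
Number of gene body regions by distance to the nearest TSS (left, kb, log axis) and by position of the summit along the host gene (right, percent of gene length), coloured by overlap with coding exons (130), other exons (36) or neither (215). Regions crowd near the 2 kb limit, and regions over exons are most frequent in the last 20% of the gene.

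The regions were hosted by 298 genes. Protein-coding genes hosted 322 regions (84.5%), long intergenic non-coding RNA genes 32 and antisense genes 18. A single region was found in 234 hosts, 2 regions in 51, and 3 or more in 13. In 120 of the hosts, which held 152 regions (39.9%), a promoter of the same gene carried a region as well. Another region of at least 3 libraries and both groups lay within 5 kb of 147 regions (38.6%), whereas 111 had none within 50 kb.

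The host with the most regions was Gm20388, a predicted protein-coding gene annotated over chr8:119910841-124345722, with 7 regions, all in its first intron. As this annotation spans many other genes, these 7 are gene body regions mainly by the extent of a single transcript model. Runx3, a transcription factor of T cells and neurons, and Trp73, a member of the p53 family, held 4 regions each. In Runx3 these were intronic in introns 1, 3 and 4, in 3 to 6 libraries each, and its promoter was marked too. Wnt3, a secreted developmental signal, held 3 regions between 103807800 and 103811493 on chromosome 11, in 4 or 5 libraries each, and its promoter was also marked. RefSeq placed a TSS in one of the Wnt3 regions and 1740 bp from another. Sptbn4, a spectrin of the axon initial segment, held 3 regions over coding exons 16, 23 and 31 of 36 with no region at its promoter. Ebf3, Srcin1, Dlgap3, Gm29683, Celf4, Ostm1, Gbx1 and H60b held 3 regions each.

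Developmental transcription factors were the best represented of 6 gene lists. They made up 37 of the 251 protein-coding host genes (14.7%), against 8.57% of the 1459 protein-coding genes with a promoter region and 1.03% of all 18691 protein-coding genes longer than 4 kb. These shares are descriptions, since longer genes have more sequence outside promoters and no test of the list was made. The strongest such regions were in Onecut3 (intron 1), Ebf3 (over a coding exon), Lhx5 (over a coding exon) and Foxf2 (exon 2), at mean rank percentiles of 89.2, 86.9, 85.8 and 84.8. Signalling ligands and receptors gave 8 hosts (3.19%, against 3.36% of promoter-marked genes), among them Fgf8, Shh, Wnt3 and Wnt10a. The other lists had lower shares than among promoter-marked genes. Ion channel genes gave 6 hosts (2.39% against 3.70%), and adhesion and axon guidance genes gave 4, such as Ntn1 and Slit1 (1.59% against 2.19%). Neurotransmitter receptors (Adra1a, Grin2c) gave 2 (0.797% against 2.33%), and extracellular matrix genes (Col13a1, Mmp28) gave 2 (0.797% against 1.78%). All these shares of hosts were above those among all 18691 protein-coding genes longer than 4 kb. There, signalling genes made up 0.583%, ion channels 0.872%, adhesion and axon guidance 0.792%, neurotransmitter receptors 0.508% and extracellular matrix 0.733%.

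The regions were next compared with 1972 promoter regions and 425 intergenic regions that met the same rules on libraries and repeats. Gene body regions were shorter than promoter regions and had higher pileups. The distance to a TSS was taken from the nearest base of a region, and a gene body region had to lie whole inside a gene. The rule itself thus favours shorter regions in gene bodies, so the test of length cannot separate its part from the difference. A pileup is the number of overlapping 200-bp read extensions at the highest summit, and each library was scaled to 1000 reads per Mb of genome. The median covered length was 542, 426 and 486 bp in the PBS libraries and 325, 400 and 312 bp in the CTX libraries for gene body regions, and 646, 534, 629, 415, 482 and 382 bp in the same order for promoter regions. It was thus lower in 6 of 6 libraries, by 99.6 ± 25.4 bp (SD, n = 6 libraries; two-sided exact permutation test swapping the classes within each library, p = 0.0312, the smallest this design allows, adjusted p = 0.05 over 8 such tests). The median scaled pileup was 22 ± 1.92 reads in gene body regions and 20.2 ± 1.94 reads in promoter regions, a difference of 1.79 ± 0.566 (SD, n = 6) that was positive in 6 of 6 libraries (exact p = 0.0312, adjusted p = 0.05). Intergenic regions, at 17.8 ± 1.13 reads, were lower still in 6 of 6 libraries (difference 4.21, exact p = 0.0312, adjusted p = 0.05).

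The local background, the mean read level in the 10 kb around the summit over the genome-wide level, showed how densely the neighbourhood was covered. It was 30.2 ± 5.08-fold for gene body regions, 25.4 ± 3.35-fold for promoter regions and 20.2 ± 3.02-fold for intergenic regions, and gene body regions were higher than either in 6 of 6 libraries (exact p = 0.0312 for each, adjusted p = 0.05, n = 6 libraries). The rank of a region by q-value within its library, in contrast, showed no difference beyond the spread of libraries, at a median percentile of 66.6 ± 3.09 against 67.4 ± 3.71 for promoter regions (difference −0.869 ± 1.88, exact p = 0.344, n = 6). The q-value is computed against the local background, whereas the pileup is not.

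**Figure D2:**
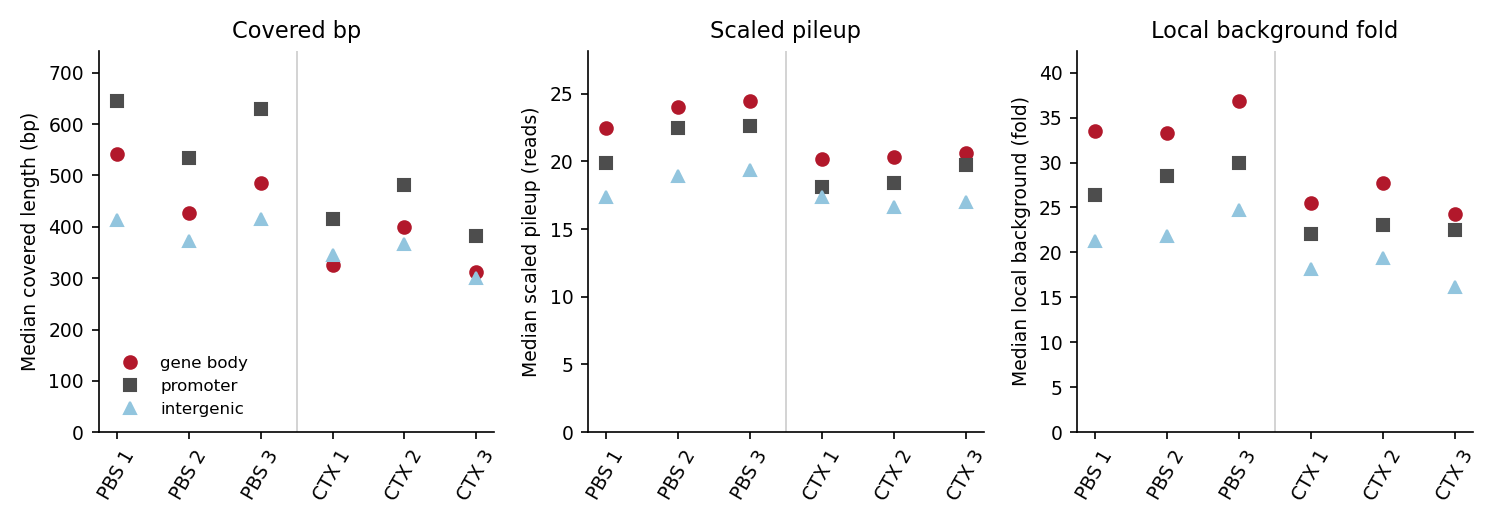
Median covered length (bp), scaled pileup (reads at 1000 reads per Mb) and local background (fold over the genome) in each of the 6 libraries, for gene body (circles), promoter (squares) and intergenic regions (triangles). Gene body regions lie below promoter regions in covered length and above them in the other panels in every library.

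The CpG content of gene body regions lay between those of the other classes. The median ratio of observed to expected CpG was 0.342 in gene body regions, 0.481 in promoter regions and 0.275 in intergenic regions, against 0.201 over the unmasked gene body sequence. By composition, at least 50% GC and a ratio of at least 0.6 over at least 200 bp, 74 gene body regions (19.4%) were like CpG islands, compared with 29.4% of promoter regions and 9.65% of intergenic regions. Regions over coding exons stood apart within the class, with a median ratio of 0.531 and 53 of 130 island-like, whereas 19 of the 215 intronic regions were island-like and their median ratio was 0.240.

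Most regions were single-copy sequence, but the strongest by q-value rank were not. For each region the share of its 24-base words that occur once in the chromosomes of GRCm38 was computed. The median was 99.9%, and 318 of the 381 regions (83.5%) reached at least 90%, compared with 92.3% of promoter regions and 73.2% of intergenic regions. The limit of 90% was set after these values were seen. The 9 strongest of the 108 regions present in all 6 libraries, by mean rank percentile, had shares of only 26.2% to 78.7%. They were narrow, at 410 to 733 bp, 8 of the 9 were intronic throughout, and the nearest other region lay at least 123365 bp away. The next, in Chst5, was 99.9% single-copy and 1427 bp wide. The q-value is computed against the local background, and by scaled pileup some of the 9 lay near the class median of 22 reads. Gm26561 stood at 14.7 to 24.5 reads and Jarid2 at 20.4 to 29.6 over the 6 libraries. Others, such as Chl1 at 416 to 803, stood far above it.

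**Figure D3:**
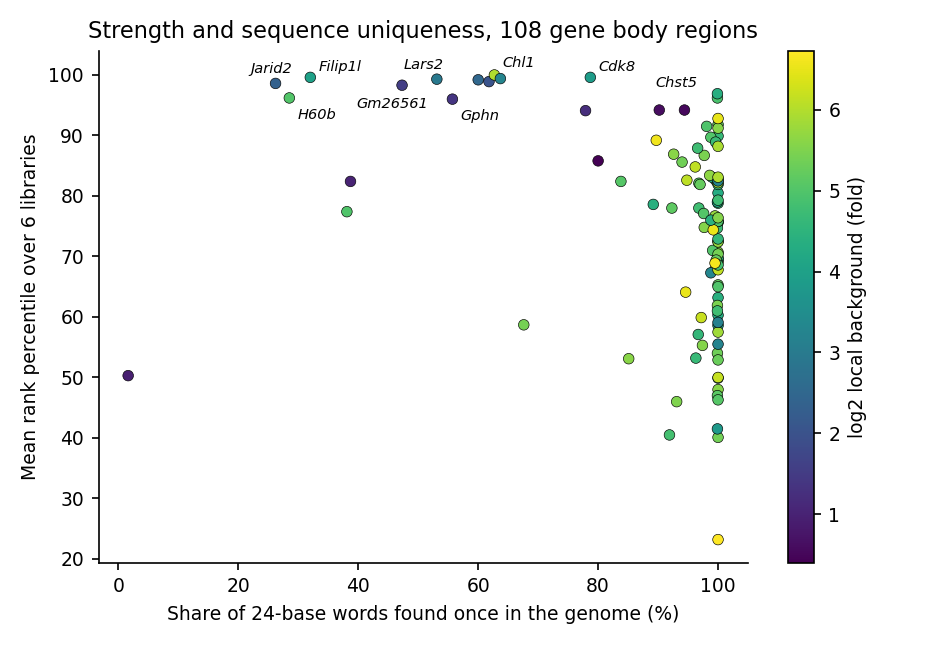
Mean rank percentile by q-value over 6 libraries against the percent of 24-base words found once in the genome, for the 108 gene body regions present in all 6 libraries, coloured by local background (log2 fold). The 9 strongest regions all lie below 80% on the horizontal axis, and most other regions lie at or near 100%.

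The strongest region, in intron 4 of Chl1, a neural cell adhesion molecule, had pileups of 954, 690 and 663 reads in the PBS libraries and 916, 1004 and 898 in the CTX libraries. It matched itself best at a spacing of 120 bp and held 31.0% GC. The regions of Filip1l and Jarid2 shared 235 of their 24-base words with each other (of 710 and 588), and a region in D130009I18Rik shared 216 and 134 words with them. The region in the last exon of Lars2, the mitochondrial leucyl-tRNA synthetase, likewise shared 117 words with a region in Gphn and 50 with one in Gm26561. The marked word in the Sos2 run shown above stood every 51 bp, the spacing at which that region matched itself best. Reads were kept by the authors at a mapping quality of at least 13, and how many reads of other copies such regions held was not tested. No list of artefact-prone regions was applied and no ribosomal RNA sequence was searched here, so their part in the pileups of these repeated regions was not tested.

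The 63 regions under 90% single-copy differed from the 318 single-copy ones in several further measures, which are given as descriptions. Their median local background was 7.83-fold against 33.8-fold, their median CpG ratio was 0.171 against 0.389, and 5 (7.94%) overlapped a coding exon against 125 (39.3%). A host gene on one of the lists was found for 3 (4.76%) against 71 (22.3%). A marked promoter of the host was found for 16 (25.4%) against 136 (42.8%). With single-copy regions alone in each class, the covered length and the scaled pileup still differed from promoter regions in the same direction in 6 of 6 libraries (−98.8 bp and 2.59 reads, exact p = 0.0312 for each, n = 6), and the rank percentile was then lower in gene body regions in 6 of 6 libraries (−2.29, exact p = 0.0312).

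The study compared PBS with CTX, and presence was looked at first. Of the 381 regions, 208 (54.6%) were present in more PBS than CTX libraries and 33 (8.66%) in more CTX than PBS libraries. Promoter regions gave 46.9% and 4.97%, and intergenic regions 53.6% and 12%. The number present per library was 354, 280 and 348 in PBS and 265, 316 and 171 in CTX. The groups overlapped, and the count was lowest in the CTX library with the lowest depth (1118 reads per Mb) and highest in the PBS library with the highest (1957 reads per Mb), so the part of depth in presence cannot be told apart from that of treatment.

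Signal was therefore compared over the 108 gene body regions present in all 6 libraries. The median log2 scaled pileup was 4.76, 4.73 and 4.98 in the PBS libraries and 4.46, 4.56 and 4.54 in the CTX libraries, so every CTX library lay below every PBS library. The difference, −0.30 on the log2 scale (PBS 4.82 ± 0.14, CTX 4.52 ± 0.055, SD, n = 3 each), had an exact permutation p = 0.1, the smallest that 3 against 3 libraries allow. Promoter regions gave −0.28 over 780 regions, with the same p. The gap between the classes in each library, in which the depth scaling drops out, was 0.12 ± 0.056 in PBS and 0.094 ± 0.023 in CTX, a difference of −0.029 that was not larger than the spread (exact p = 0.500, n = 3 each). The median covered length was 904, 564 and 737 bp in PBS and 448, 636 and 384 bp in CTX, which overlapped (difference −245 bp, exact p = 0.200). Without a spike-in, a lower scaled pileup may reflect less of the mark or a larger share of reads outside peaks, and these cannot be told apart here.

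Region by region, limma was run on the log2 scaled pileups of all 1021 regions that were present in 6 libraries and under 50% soft-masked. At an adjusted p under 0.05 it called 14 of the 108 gene body regions lower (13%) and 1 higher in CTX, where the whole table gave 7.84% lower and 0.588% higher. Groups did not overlap in 45 gene body regions that were lower and 4 that were higher, against 37.6% lower and 1.57% higher of all 1021. The median difference was −0.30 in gene body regions and −0.28 over all regions, and 98 of the 108 (90.7%) lay below 0, against 90.1% of all 1021. Changes relative to the common shift of −0.28 were fewer. With each library centred on its median over the 1021 regions, the median difference of gene body regions was −0.02, none of the 108 was lower by limma at an adjusted p under 0.05 and the same number, 1, was higher (background 0.0979% lower and 0.490% higher). At an unadjusted p under 0.05, 7 (6.48%) were then lower and 6 (5.56%) higher, against 3.82% and 4.60% of all regions, and groups did not overlap in 6 lower and 9 higher (background 5.39% and 6.95%). The calls also rested on some single libraries, over the whole table as in gene bodies. Without PBS replicate 3, limma called 1 gene body region lower and 1 higher (background 0.290% and 0.193%), and without CTX replicate 1 none lower and 1 higher (background 0.629% and 0.180%). Without PBS replicate 1, in contrast, it called 14 of 113 lower and 2 higher, against 89 lower and 7 higher of all 1019. Without the intensity trend none was lower and 1 was higher (background 0.490% and 0.196%). With fold enrichment over the local background in place of pileup no region of the 1021 was called, and the smallest adjusted p of a gene body region was 0.167 by limma, Sos2 included. At an unadjusted p under 0.05, 4 gene body regions were then lower and 2 higher (background 3.43% and 2.06%).

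**Figure D4:**
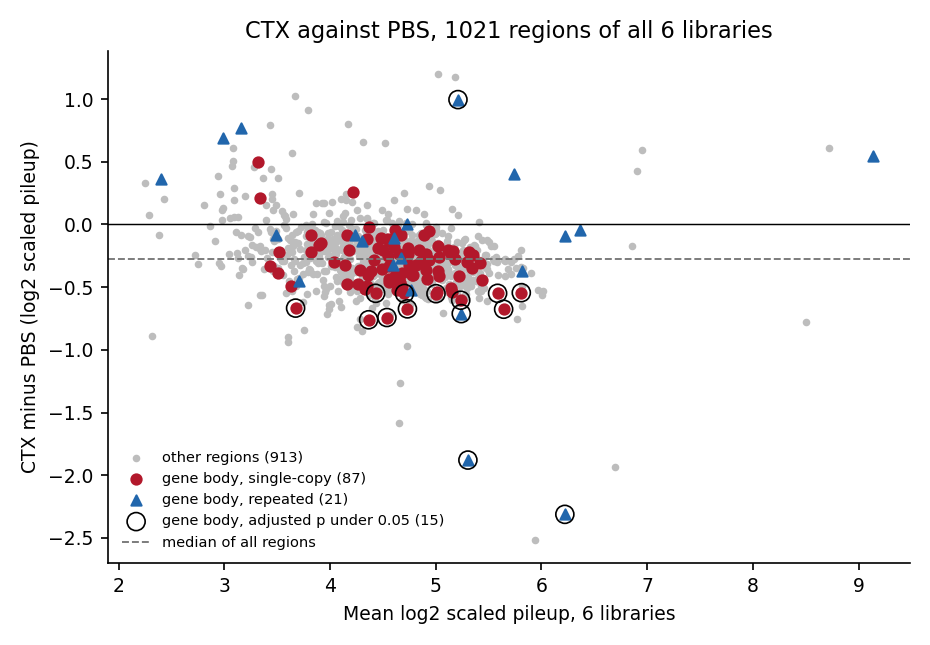
Difference in log2 scaled pileup, CTX minus PBS, against its mean over 6 libraries for 1021 regions. Gene body regions are red circles (single-copy, 87) or blue triangles (repeated, 21), rings mark the 15 with an adjusted p under 0.05 by limma, and the dashed line is the median of all regions (−0.28). Single-copy regions lie close around the dashed line, and the largest differences of gene body regions are those of repeated ones.

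Single-copy and repeated regions differed in how widely their values spread. Of 87 single-copy gene body regions in 6 libraries, 84 (96.6%) lay below 0, against 93.3% of all 899 single-copy regions, with a median of −0.32 (−0.29 over the 899) and an SD of 0.21 over regions, and 11 were called lower and 0 higher. Of the 21 repeated regions, 14 lay below 0, with a median of −0.09 and an SD of 0.78, and 3 were called lower and 1 higher. The calls of both kinds come from the fit over all 1021 regions, which called 7.84% lower and 0.588% higher. Whether calls were more frequent in single-copy or in repeated regions was not tested, so these counts do not separate the kinds. Fitted over the 899 single-copy regions alone, limma called 20 of the 87 lower and 0 higher at an adjusted p under 0.05 (background 15.1% lower, 0 higher), with 41 lower and 1 higher at an unadjusted p under 0.05 (background 39.8% and 0.334%). Regions over coding exons had a median of −0.33 (48 of 49 below 0), and intronic regions −0.24 (44 of 53 below 0). The difference between these was not tested.

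Among the single-copy regions with the lowest values was that of Mmp28, a secreted matrix metalloproteinase, at 32.2, 23.3 and 25.7 reads in PBS and 14, 22.7 and 12.5 reads in CTX. All CTX values lay below all PBS values, though the second CTX library nearly reached the second PBS library, and limma gave −0.76 ± 0.20 (SE, adjusted p = 0.0346). The region in intron 1 of Mapt, the gene of the microtubule-associated protein tau, had 29.1, 24.7 and 37.6 reads in PBS and 16.7, 21.5 and 16.1 reads in CTX (−0.74 ± 0.18, adjusted p = 0.0268 by limma). Both lie within 3 kb of a TSS, at 2609 and 2129 bp. RefSeq placed a TSS within 2 kb of 4 of the 15 called regions, those of Mmp28 (900 bp), Cyp26b1 (1531 bp), Lars2 (1921 bp) and Cilp2, where it lay inside the region. H60b, with 28.5% of words found once, was at 42.4, 45.8 and 58.3 reads in PBS and 25.8, 35.0 and 28.6 in CTX (−0.71 ± 0.16, adjusted p = 0.0268 by limma).

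The other called regions, named after their values were seen, were those of Vax2os, 3110039M20Rik, Mzf1, Ebf3, Igsf21, Cilp2, Cyp26b1, Nkpd1 and Jak3, with differences of −0.68 to −0.54. Cyp26b1 degrades retinoic acid and Jak3 is a cytokine receptor kinase. Ebf3, an early B cell factor family member that acts in neurons and muscle, was the developmental transcription factor among them, at 46.0, 42.9 and 50.8 reads in PBS and 27.9, 42.3 and 24.1 reads in CTX (−0.60, adjusted p = 0.0444 by limma). Of the 15 regions of that list in 6 libraries, 14 lay below 0 with a median of −0.37, and Ebf3 was the only one called. Over all 1021 regions, 90.1% lay below 0 with a median of −0.28, and 7.84% were called lower. The counts of the list are near these shares and do not set it apart. Onecut3, for example, was at 52.6, 57.4 and 87.2 reads in PBS and 47.5, 42.3 and 60.8 in CTX, which overlapped. Of the other lists, Fgf8 stood at 31.2, 38.5 and 42.0 reads in PBS and 27.9, 30.1 and 27.7 in CTX and was not called (−0.37, adjusted p = 0.102 by limma).

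The extreme values belonged to repeated sequence. The region in Lars2 had 38.3, 469 and 255 reads in PBS and 25.8, 38.7 and 37.6 in CTX, and the one in intron 3 of Camk1d, a calcium/calmodulin-dependent kinase, had 23.5, 152 and 122 in PBS and 14, 23.3 and 26.8 in CTX. In both, the first PBS library fell within the range of the CTX libraries, so the groups overlapped, although limma gave −2.31 ± 0.51 and −1.88 ± 0.42 (SE, adjusted p = 0.0256 for each). Both differences rest on PBS replicates 2 and 3, whose values are far above the first.

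Sos2 was the region called higher. Its scaled pileups were 28.6, 21.8 and 28.8 reads in PBS and 51.6, 55.2 and 50.1 in CTX, 26.4 ± 3.99 against 52.3 ± 2.64 (SD, n = 3 each), and the groups were far apart (1.0 ± 0.15 on the log2 scale, adjusted p = 0.00128 by limma). The whole reads behind these were 56, 30, 46, 74, 90 and 56, with exact 95% Poisson intervals that cover counting error only, such as 20.2 to 42.8 for the second PBS library and 72.4 to 111 for the second CTX library. This is the tandem repeat shown above, without a CG in its 475 bp. Chl1 was at 487, 502 and 416 reads in PBS and 639, 616 and 803 in CTX, so every CTX library lay above every PBS library, yet limma gave 0.55 ± 0.35 (SE, adjusted p = 0.245). The other high values, of Cobl (0.77 ± 0.34), an actin nucleator, Ptprm (0.69 ± 0.33), a receptor tyrosine phosphatase, and Cdk5rap2 (0.50 ± 0.23), a centrosomal protein, had adjusted p of 0.119 to 0.135 by limma.

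Of the other strong regions, some overlapped between the groups and some did not. Filip1l was at 86.3, 74.9 and 91.6 reads in PBS and 76.8, 89.0 and 78.7 in CTX, and Jarid2 at 29.6, 20.4 and 27.0 in PBS and 22.3, 27.0 and 21.5 in CTX, so the groups overlapped in both. Chst5 was at 32.2, 37.1 and 36.4 reads in PBS and 25.1, 28.8 and 24.1 in CTX, which did not overlap, but its difference missed the threshold (−0.44 ± 0.15, adjusted p = 0.0615 by limma). Gm12682, an antisense gene, was at 36.3, 37.8 and 39.5 reads in PBS and 30.0, 29.5 and 25.9 in CTX, which did not overlap either and missed the threshold too (−0.41 ± 0.15, adjusted p = 0.0675 by limma).

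**Figure D5:**
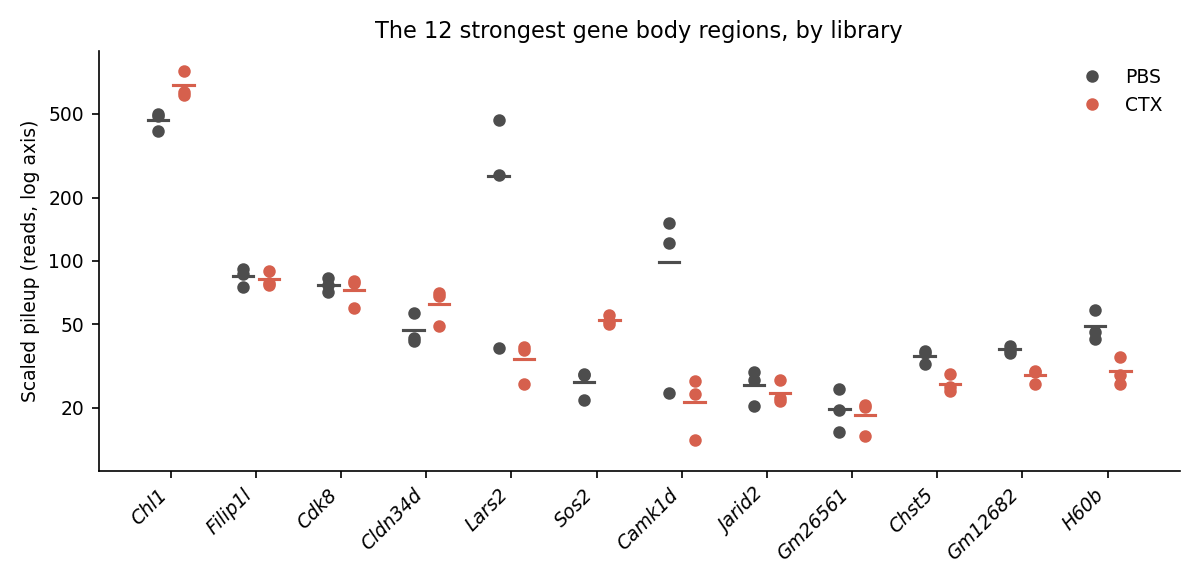
Scaled pileup (reads at 1000 reads per Mb, log axis) of the 12 strongest gene body regions by mean rank percentile, each point a library and each bar a group mean (3 PBS, 3 CTX). Sos2 and Chl1 are higher in all 3 CTX libraries than in any PBS library, and the PBS libraries of Lars2 and Camk1d spread from 23.5 to 469 reads.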

How the data were processed

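CUT&Tag libraries of GCs from 3 PBS and 3 CTX samples were analysed; each sample pools GCs, and p-values measure the spread between these samples. Per the labels and the study's methods, the authors aligned reads with BWA to mm10, kept a mapping quality of at least 13, removed duplicates and called narrow peaks per library with MACS2 2.1.0 at q 0.05, with no control library stated. The submitters' processing notes also list fastp, HOMER 4.9.1, ChIPseeker and bedtools. The deposited lists give a score, a fold enrichment (a ratio to local background), and −log10 p- and q-values. They hold no read counts.

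Assuming that peaks were called without a control, so that local background came from the library itself, pileup and background were solved from the deposited fold enrichment and −log10 p-value. This gave a whole-number pileup for 100% of summits in each library, and depth was taken from the most frequent background, the genome-wide level. All 1000 simulated summits were recovered. They were made by the same formula under the same assumption, and did not reach the highest pileups of the data. The simulation thus checks the solving at lower pileups only and cannot test the assumption on the control. Positions come from GENCODE vM21 and repeats, CpG and sequences from RefSeq's GRCm38.p6. Where a region lay in several genes (21 regions), protein-coding and then shorter hosts were preferred. Regions on unplaced contigs were left out.

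Medians per library were compared by exact permutation tests. limma 3.58.1 (R 4.3.3) with an intensity trend and Benjamini-Hochberg adjustment over all 1021 regions compared groups. On simulated 3-fold changes in those 1021 regions it recovered 197 of 200 with 8 false calls. The simulation held counting error only, without spread between samples, and changes larger than the common shift. It therefore does not give the error rate of the calls above. Named were the 12 strongest regions (1 per host), the 5 lowest and 5 highest differences, hosts of 3 or more regions, up to 4 regions per gene list and the regions at the distance limit. Members and lists were chosen with earlier results of these data known. Same-numbered libraries did not deviate together (correlations −0.0695 to 0.0734), so numbers were not taken as pairs. Other q-values, distances, masking limits, annotations, scalings and left-out libraries were tried.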

Additional observations from a re-analysis of the deposited data

How the results depend on the processing

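The number of gene body regions was 164 at a q-value of at most 1e-05, 630 at more than 1000 bp and 198 at more than 5000 bp from every TSS. The rank difference from promoter regions passed the threshold at more than 1000 bp (−4.69) and in single-copy regions (−2.29, an alternative chosen after seeing the data). The difference in covered length kept its sign without any 1 library (−128 to −97.4 bp), where 5 libraries cannot give a p under 0.0625. The CTX minus PBS difference of the class gap reversed at more than 5000 bp (0.020) and without CTX replicate 1 (range −0.032 to 0.0052 over left-out libraries). The count of called gene body regions, 15 of 108, was 1 of 30 at a q-value of at most 1e-05 (all regions: 0 lower and 1 higher of 301). It was 5 of 55 at more than 5000 bp (all regions: 80 lower and 6 higher of 1021). It was 1 of 108 after centring (all regions: 1 lower and 5 higher) and 1 of 108 without the limma trend (all regions: 5 lower and 2 higher). It was 0 with fold enrichment in place of pileup, where limma called none of the 1021 regions and gave 4 lower and 2 higher in gene bodies at an unadjusted p under 0.05 (3.43% and 2.06% of all regions). It ranged from 1 to 16 without single libraries (2 of 113 without PBS replicate 3, 1 of 123 without CTX replicate 1, 8 of 114 without CTX replicate 2, 5 of 166 without CTX replicate 3). In the same order, all regions gave 3 lower and 2 higher of 1035, 7 and 2 of 1113, 29 and 2 of 1055, and 21 and 3 of 1444. It was 16 of 113 without PBS replicate 1 (all regions: 89 lower and 7 higher of 1019) and 13 of 116 without PBS replicate 2 (44 and 11 of 1065). Other settings gave more calls, with 22 of 81 at equal peak numbers (all regions: 119 lower and 7 higher of 768). Under 25% soft-masked it was 20 of 99 (116 and 4 of 963), and at a q-value of at most 0.01 it was 16 of 92 (80 and 6 of 876). The cause of these changes was not tested. With the replicate number as a replicate block the count of called gene body regions was 8 (7 lower, 1 higher), and over all regions 43 lower and 5 higher in place of 80 and 6. The block changed no other call. The CTX minus PBS differences in median log2 scaled pileup and covered length kept their sign under all alternatives run for them, but the former, −0.30, was −0.029 after centring and −0.028 with fold enrichment. Pileups of 4 to 1004 reads limit what single regions can show.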

Other observations

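Gene body intervals that were more than 2 kb from every TSS and under 50% soft-masked numbered 2726 before any rule on libraries, and 2057 of them (75.5%) were found in a single library. These had a median width of 200 bp, a median local background of 1.31-fold, a median CpG ratio of 0.180, and 3.16% were like CpG islands by composition.

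Regions in all 3 libraries of a group and none of the other numbered 22 for PBS and 3 for CTX, which is 5.42% and 0.739% of the 406 gene body regions in at least 3 libraries. The shares were 6.63% and 0 of 2112 promoter regions and 8.55% and 0.641% of 468 intergenic regions. The PBS ones, named after their values were seen, included introns or exons of Hoxa3, Nkx2-2, Six2, Tbx18, Barhl2 and Runx3, which are developmental transcription factors, and of Kcna1, a voltage-gated potassium channel. The CTX ones were in Efl1, Rps6kc1 and St8sia1. The rule that both groups hold a region leaves these out of the comparisons above, and the part of the lower depth of the shallowest CTX library in their number was not tested.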
